A study of Rattus norvegicus with 6 samples.

Results

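Cadherins and protocadherins were examined in rat primary cortical cells transfected with the basic helix-loop-helix factor Math2. A probe set counted as a member where the platform annotation gave it 1 gene symbol that was Cdh with a number, any clustered or non-clustered Pcdh, Fat1 to Fat4, Dchs1, or Celsr with a number, and names such as Cdhr were left out. This gave 54 probe sets for 40 genes, of 31042 probe sets on the array that are not controls. Of these genes 30 had 1 probe set, 6 had 2 and 4 had 3. The cells were cultured with 10% fetal calf serum, and each 10-cm dish was given 13.3 µg of a plasmid, either the one that expresses Math2 or its control. Every dish, controls included, was also given 2.7 µg of a plasmid for LNGFR, a shortened nerve growth factor receptor used as a surface tag, and transfected cells were picked out by that tag 24 h later. Math2, now named Neurod6, is a transcription factor of differentiating cortical neurons. The groups were 3 Math2 arrays and 3 control arrays, each hybridised with RNA amplified from 50 ng, and the labels name no age, strain or separate culture for any of them. The p-values therefore speak of the spread among these 6 samples alone, and that spread may be technical. Values in each group are given in the order of array numbers 1, 2 and 3. In RNA from a mixed culture, fewer cells of a type and less RNA per cell cannot be told apart.

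Cadherins are calcium-dependent adhesion proteins with repeated extracellular domains. Classical cadherins bind like molecules on the neighbouring cell and hold on to the actin cytoskeleton through catenins, and in the cerebral cortex they take part in the adhesion of progenitors, in neuron migration and in synapse formation. Protocadherins lack the catenin-binding tail. Non-clustered (delta) protocadherins are expressed in regional patterns in the brain, whereas the clustered alpha, beta and gamma genes give single neurons different combinations of surface proteins that serve in self-recognition. Fat and Dachsous proteins are giant cadherins that bind each other between cells and act on planar cell polarity and on the Hippo growth pathway, and Celsr proteins are the vertebrate relatives of Flamingo, a core component of planar polarity.

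The measure is the MAS5 signal of each probe set, a linear value without a unit. Median signals ran from 106 to 119.7 on Math2 arrays and from 102 to 120.5 on control arrays. Hybridization spike-ins had geometric mean signals of 3875 to 6773 on Math2 arrays and 1893 to 2566 on control arrays, and these ranges did not overlap. Differences are given as log2(signal + 7.42), Math2 minus control, a scale that understates the change of dim probe sets. The test covered 18625 probe sets, those above the 40th percentile of mean log2 values. The probe set of Neurod6, the transfected gene, had 312, 167 and 1546 in Math2 cells, against 386, 207 and 973 in control cells, with no difference between groups that passed (limma adjusted p = 1.00), so the array gives no check of the transfection, and whether its probes lie within the plasmid's insert is not stated. Of the members 35 probe sets for 26 genes passed this filter, and the other 19 had group means no higher than 76.98. The signal of one probe set cannot be set against that of another, because probes differ in how strongly they bind.

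No cadherin or protocadherin probe set passed limma's test between Math2 and control cells after Benjamini-Hochberg adjustment at 0.05, without or with array number as a block. Fat4 and Fat1, genes of giant cadherins, had the smallest p of the members without the block, and both were lower on every Math2 array than on any control array. With the block Fat4 again had the smallest p, followed by probe sets of Cdh2 and Pcdh17 and then Fat1. Over all tested probe sets the same fit called 0 (0%) without the block and 3 (0.0161%) with it, and the block together with quantile normalization called 5 (0.0268%), none of them a member. At an unadjusted p under 0.05 in limma, 0 members were higher and 1 was lower without the block, against 1.75% and 1.44% of all tested probe sets. With the block 0 were higher and 4 of 35 were lower, which is 11.4% of the members against 3.92% of all tested, and 3.78% of all tested were higher. Those 4 belonged to Fat4, Fat1, Cdh2 and Pcdh17. The groups did not overlap for 3 lower and 1 higher member, or 8.57% and 2.86% of 35, against 4.3% and 3.7% of all tested. These were Fat4, Fat1 and Pcdhb22 on the lower side and Cdh2 on the higher side. Compared within like-numbered pairs, 7 member probe sets were lower on the Math2 array in 3 of 3 pairs, or 20% against 15.2% of all tested, and 6 were higher in 3 of 3, or 17.1% against 13.1%.

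With each gene represented by its brightest tested probe set, 10 of the 26 genes were higher and 16 were lower. Their median log2 difference was -0.24. The median over all tested probe sets was -0.031, and 54.3% of those were lower. That background counts probe sets and not genes, so the medians are of unlike units. Counted by probe set, 14 of the 35 members were higher and 21 lower. The median of the members depended on single arrays. With each array left out in turn the filter was set anew, and 25 to 27 genes passed. The median was -0.058 without Math2 array 1, 0.036 without Math2 array 2 and -0.24 without Math2 array 3. It was 0.050 without control array 1, -0.28 without control array 2 and -0.026 without control array 3. With all arrays it was -0.13 with a pseudocount of 1, -0.11 with a pseudocount of 32 and -0.14 with each gene as the mean of its tested probe sets. By subfamily the medians were -0.37 for 3 Fat and Dachsous genes, -0.35 for 5 delta-2 protocadherins, -0.30 for 5 clustered protocadherins, 0.054 for 6 type II classical cadherins and 0.15 for 3 type I classical cadherins. The delta-2 median was -0.13 without Math2 array 1 and -0.71 without Math2 array 3. The remaining subfamilies had 1 tested gene each. These medians are descriptions of few genes and carry no test.

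**Figure D1:**
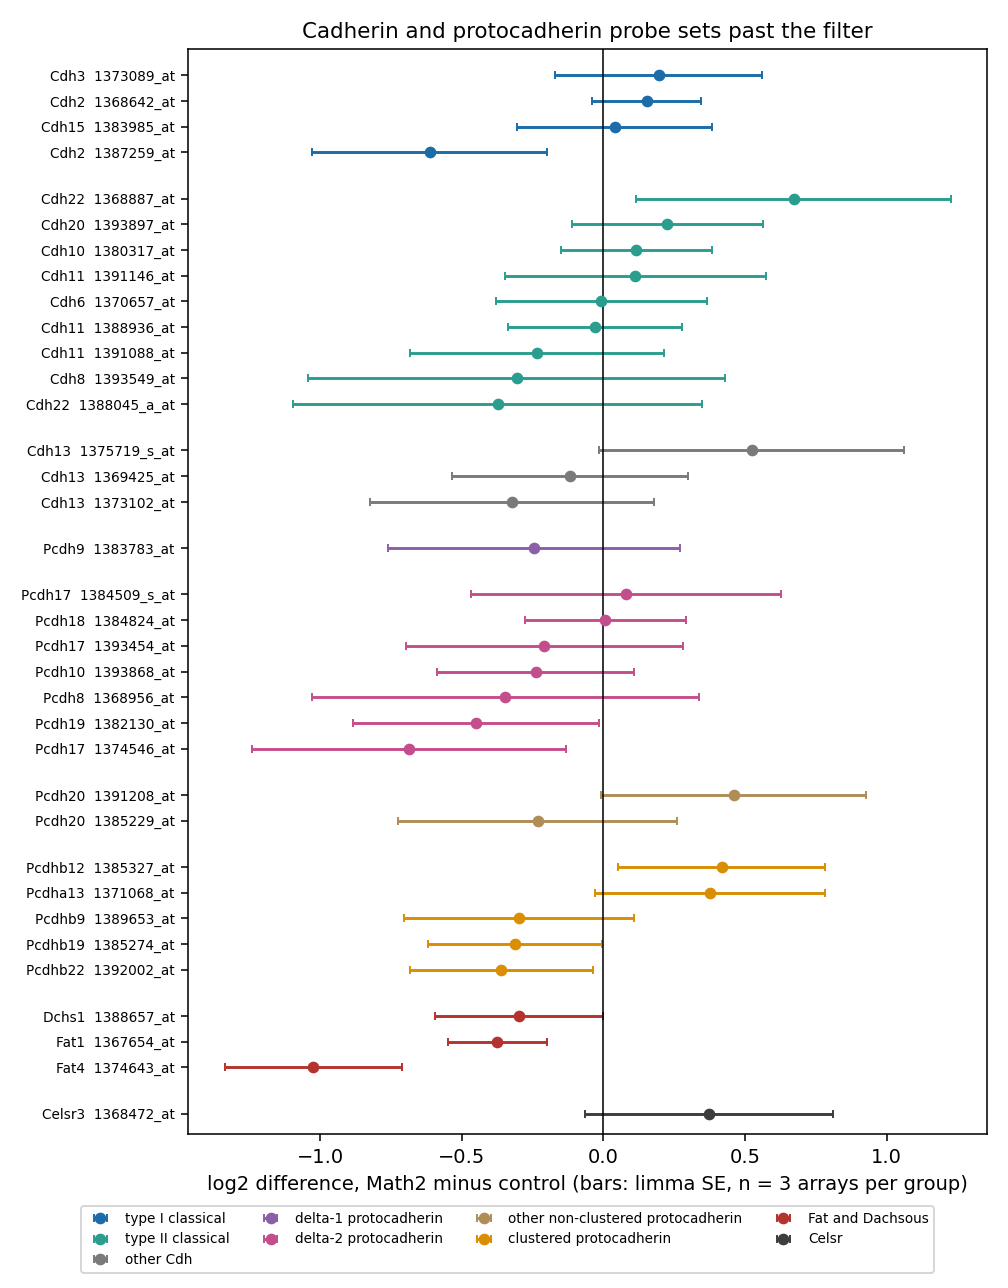
Log2 difference of the 35 cadherin and protocadherin probe sets past the filter, Math2 minus control, grouped by subfamily. Bars give limma's standard error without the block (3 arrays per group). Fat4 lies farthest from 0 at -1.02, Fat1 at -0.37 has a short bar, and most other bars cross or nearly reach 0.

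Fat4 is a giant cadherin that pairs with Dachsous 1 across cells and is known for its part in the growth and polarity of the embryonic cortex and kidney. Its signal was 183, 337 and 304 in Math2 cells, against 464, 590.2 and 603 in control cells. Every Math2 array was lower than the array of like number and lower than every control array. The means were 275 ± 81.3 on Math2 arrays and 552 ± 76.9 on control arrays (SD, n = 3 each), a log2 difference of -1.02 (SE 0.314) or 0.492 of the control level on that scale. An exact permutation test gave p = 0.1, the smallest that 3 against 3 arrays allow, and limma's adjusted p was 1.00 without and 0.272 with the block. Over all alternatives that adjusted p ran from 0.129 to 1.00, so the difference did not pass in any of them.

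Fat1, a giant cadherin linked to the actin cytoskeleton and to cell polarity, had a signal of 7082, 7301 and 8568 in Math2 cells, against 10814, 8995 and 9934 in control cells. Again all Math2 arrays were below all control arrays, at 7650.4 ± 802 on Math2 arrays and 9915 ± 909.6 on control arrays (SD, n = 3 each). The log2 difference was -0.37 (SE 0.175), with an exact permutation p of 0.1 and limma adjusted p of 1.00 without and 0.613 with the block. Fat1 lies in the bright range of the arrays, where scaling matters, with 99.04% of all 31042 probe sets below it. Among the 187 brightest probe sets, which are 1% of those tested and do not include Fat1, 186 were higher on the Math2 arrays, with a median log2 difference of 0.43. With quantile normalization, which equalizes the distributions of the arrays, Fat1's difference was -0.59 and its limma adjusted p with the block 0.203, while Fat4's difference was -0.97.

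Dchs1, Dachsous 1, is the partner that Fat4 binds. Its brighter probe set read 186, 292 and 266 in Math2 cells, against 315, 301 and 288 in control cells. All 3 Math2 arrays were lower than the control array of like number, yet Math2 array 2 was above control array 3, so the groups overlapped. The log2 difference of -0.30 (SE 0.297) did not pass (limma adjusted p = 1.00). Fat3, a relative of Fat1 that shapes the dendrites of retinal neurons in mice, did not pass the filter and had signals below every array median, at 17.5, 39.3 and 1.62 in Math2 cells, against 43.6, 42.5 and 46.7 in control cells. The control arrays were close together and all above the Math2 arrays, but signals this dim do not fix a fold. Fat2 and the other Dchs1 probe set were also dim, with group means of 8.397 and 24.2 on Math2 arrays and 11.2 and 18.4 on control arrays.

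**Figure D2:**
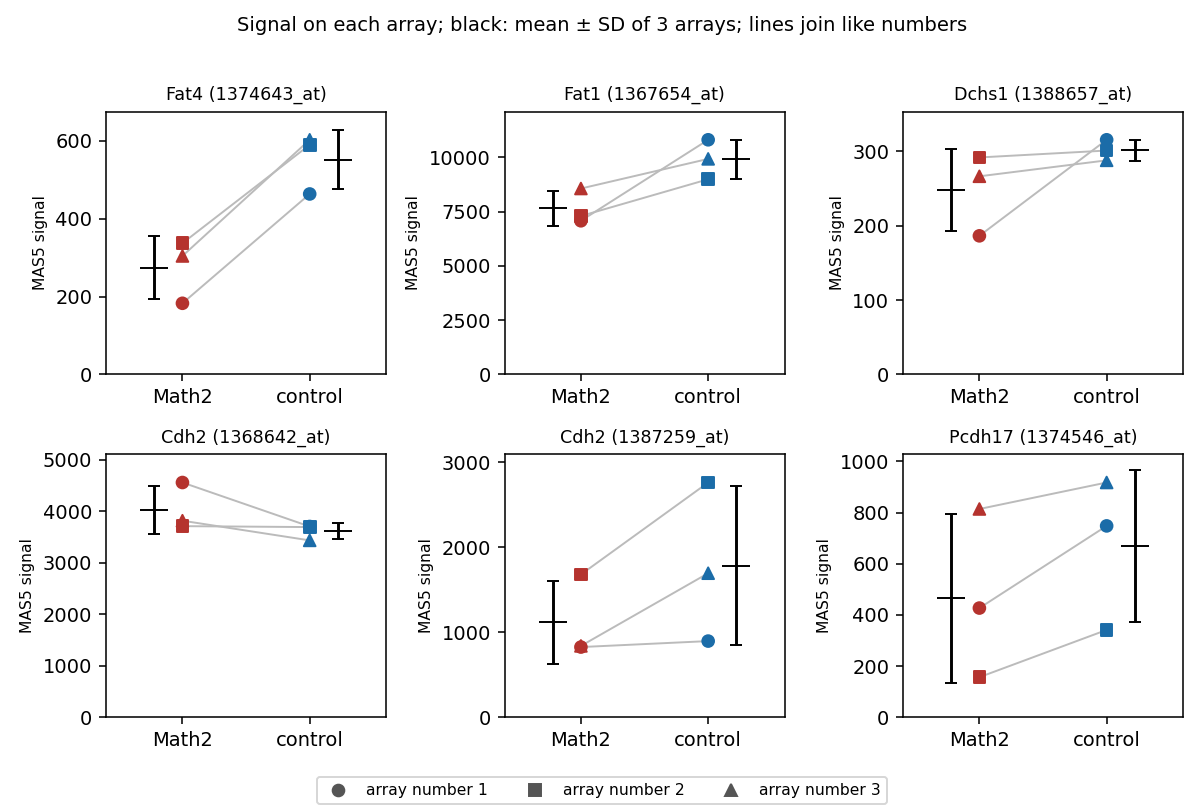
MAS5 signal on each array for Fat4, Fat1, Dchs1, both tested probe sets of Cdh2 and the brightest of Pcdh17, with Math2 arrays at left and control arrays at right. Grey lines join arrays of like number and black marks give the mean ± SD of 3 arrays. Fat4 and Fat1 separate the groups, whereas in Pcdh17 and the Cdh2 probe set 1387259_at all 3 lines climb from Math2 to control while the groups overlap.

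Because bHLH factors bind the E-box, CANNTG, the RefSeq promoters of these genes are shown for the 250 bases before the annotated start, with every E-box in capitals. They were taken from RefSeq's GRCr8 assembly, Fat4 from chr2:123855039-123855288 on the plus strand and Fat1 from chr16:54028610-54028859 on the minus strand.
Fat4: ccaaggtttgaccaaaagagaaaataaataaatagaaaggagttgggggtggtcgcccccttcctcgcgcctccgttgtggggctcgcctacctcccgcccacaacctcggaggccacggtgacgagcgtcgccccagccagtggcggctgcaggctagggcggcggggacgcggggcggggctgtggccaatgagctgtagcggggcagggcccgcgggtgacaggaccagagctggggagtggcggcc
Fat1: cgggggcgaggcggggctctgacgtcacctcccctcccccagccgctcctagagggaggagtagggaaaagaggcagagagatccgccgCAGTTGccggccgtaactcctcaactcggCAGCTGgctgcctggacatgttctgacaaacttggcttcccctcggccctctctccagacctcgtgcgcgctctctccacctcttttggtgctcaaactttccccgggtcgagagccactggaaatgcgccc
The Fat1 window held an E-box CAGTTG that begins 161 bases and another, CAGCTG, that begins 132 bases before the start, and these letters did not occur in the Fat4 window. CANNTG reads the same on both strands in form, and 65.5% of 33469 RefSeq promoters held it in their 250 bases. Of the 26 tested member genes 18 had a promoter in the table, and 8 of these 18 held CANNTG. The form CAGATG, read on either strand and thus also as CATCTG, was present in 13.96% of all promoters and in 1 of the 18, that of Pcdhb19. A match in these windows is a description of letters and says nothing of binding.

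Celsr3, a planar polarity cadherin needed for the growth of major axon tracts, had 455, 408 and 845 in Math2 cells, against 419, 227 and 745 in control cells. It was higher on the Math2 array in 3 of 3 numbered pairs, but array number 3 was the highest and number 2 the lowest in both groups, and the groups overlapped. The log2 difference of 0.37 (SE 0.438) had a limma adjusted p of 1.00 and was -0.050 without control array 2. Celsr2 did not pass the filter, at group means of 56.04 on Math2 arrays and 76.98 on control arrays.

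Among type I classical cadherins, Cdh2 (N-cadherin), the main cadherin of neural progenitors and of many synapses, was measured by 3 probe sets that did not move alike. Probe set 1368642_at had 4561, 3713 and 3818 in Math2 cells, against 3706, 3695 and 3436 in control cells, and the lowest Math2 array, number 2, was barely above the highest control array, number 1. Its log2 difference was 0.15 (SE 0.192), within the spread of the Math2 arrays. Probe set 1387259_at had 825, 1679 and 839 in Math2 cells, against 895, 2761 and 1694 in control cells. It was lower on the Math2 array in 3 of 3 pairs, with a log2 difference of -0.61 (SE 0.415), and the groups overlapped because array number 2 was highest in both. Neither passed in limma (adjusted p = 1.00 for both, and 0.891 and 0.523 with the block). The log2 ratio of 1368642_at over 1387259_at was 0.77 higher on Math2 arrays (exact permutation p = 0.2, 0.4 after adjustment over 6 such genes). Such pairs were picked for their opposite signs in these data, with the higher probe set over the lower. The direction of the ratio was thus fixed in advance, and its p cannot serve as a test. The Cdh2 probe set that did not pass the filter had 64.5, 40.3 and 34.7 in Math2 cells, against 31.5, 19.6 and 30.7 in control cells, higher without overlap but below every array median.

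Cdh3 (P-cadherin, of epithelia) had 85.0, 104 and 65.3 in Math2 cells, against 61.5, 68.5 and 87.5 in control cells, a log2 difference of 0.20 (SE 0.365). Cdh15 (M-cadherin, of muscle) had 96.8, 90.1 and 81.9 in Math2 cells, against 107, 77.5 and 78.4 in control cells, a difference of 0.041 (SE 0.344). In both genes the groups overlapped, and nearly all signals were below the array medians. Both probe sets of Cdh1 (E-cadherin, of epithelia) were below every array median, with no signal above 40.4 on any array. Cdh4 and the endothelial gene Cdh5 are not analysed here.

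Of the 6 tested type II classical cadherins, several of which mark areas and layers of the cortex, 3 were higher and 3 lower, and none passed. Cdh10, expressed mainly in brain, had 2134, 1444 and 2411 in Math2 cells, against 2092, 1428 and 1953 in control cells, with a log2 difference of 0.12 (SE 0.267). Cdh11, found in mesenchyme and in neurons, had 1976, 1255 and 2514 in Math2 cells, against 2387, 1376 and 2017 in control cells on its brightest probe set, with a difference of -0.029 (SE 0.308). In both genes array number 2 was the lowest of its group, and the step between numbers was larger than the step between groups. Of the dimmer Cdh11 probe sets, 1391088_at had 55.4, 165 and 73.4 in Math2 cells, against 76.2, 104 and 146 in control cells, a difference of -0.23. The other, 1391146_at, had 129.8, 56.4 and 203 in Math2 cells, against 87.04, 95.8 and 142 in control cells, a difference of 0.11 with the opposite sign. Both overlapped between groups, and neither repeated the order of arrays in the brightest probe set throughout. Cdh20 had 393, 530.0 and 255 in Math2 cells, against 304, 406 and 266 in control cells, a difference of 0.23 (SE 0.338), and here array number 2 was highest in both groups.

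Cdh22, a cadherin of the brain and pituitary, had the largest positive difference of the members past the filter, 0.67 (SE 0.555), on probe set 1368887_at. Its signals were 236, 237 and 416 in Math2 cells, against 257, 60.3 and 341 in control cells, and the difference was -0.050 without control array 2. The other Cdh22 probe set, 1388045_a_at, had 15.8, 262 and 100.2 in Math2 cells, against 111, 123 and 87.3 in control cells and a difference of -0.37 (SE 0.721) in the opposite direction, and it was 0.59 without Math2 array 1. Neither passed in limma, with adjusted p of 1.00 for each. Cdh6 and Cdh8, which mark cortical areas in the mouse, passed the filter with differences of -0.0071 and -0.31 (SE 0.373 and 0.737), and Cdh7 and Cdh12 did not pass it, at group means of 8.199 to 29.6.

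Cdh13 (T-cadherin), which is anchored in the membrane by a lipid and lacks a cytoplasmic tail, had 3 probe sets past the filter. Probe set 1373102_at had 93.4, 126 and 269.7 in Math2 cells, against 96.9, 197 and 334 in control cells, a log2 difference of -0.32 (SE 0.502), and was lower in 3 of 3 pairs. Probe set 1369425_at had 135, 171 and 129 in Math2 cells, against 84.6, 170.2 and 263 in control cells, a difference of -0.12 (SE 0.416). Probe set 1375719_s_at had 53.2, 97.3 and 147 in Math2 cells, against 25.97, 72.2 and 117 in control cells, a difference of 0.52 (SE 0.5398), and was higher in 3 of 3 pairs. The 3 thus lay on both sides of 0, and in each the groups overlapped. For 1373102_at and 1375719_s_at, array number 3 was highest and number 1 lowest in both groups. The ratio of 1375719_s_at over 1373102_at was 0.85 higher on Math2 arrays on the log2 scale, without overlap between groups. Exact permutation gave p = 0.1, the smallest possible, and 0.3 adjusted over 6 genes. This pair too was picked for its opposite signs, so the direction was fixed in advance and the p cannot serve as a test. Cdh16, Cdh17 and Cdh23, known from kidney, gut and the hair cells of the ear, did not pass the filter, with group means of 4.701 to 44.1.

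Of the delta protocadherins, all 5 delta-2 genes and Pcdh9, a delta-1 gene, passed the filter. Pcdh17, a protocadherin of presynaptic sites and growing axons, had 427, 156 and 814 in Math2 cells, against 748, 341 and 918 in control cells on its brightest probe set. It was lower on the Math2 array in 3 of 3 pairs, while array number 2 was lowest and number 3 highest in both groups. The log2 difference was -0.69 (SE 0.553, or 0.255 with the block), and it was -0.065 without Math2 array 2. An exact permutation test that ignores the pairs gave p = 0.6, and limma's adjusted p with the block was 0.534. Its probe set 1384509_s_at had 46.9, 178 and 258 in Math2 cells, against 129, 90.7 and 162 in control cells, a difference of 0.080. Its probe set 1393454_at had 43.1, 171 and 136 in Math2 cells, against 103, 99.2 and 162 in control cells, a difference of -0.21. Math2 array 1 was by far the lowest of the 6 for both.

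Pcdh18, a further delta-2 gene, had 2182, 1496 and 2431 in Math2 cells, against 2290.3, 1411 and 2423 in control cells, with a log2 difference of 0.0061 (SE 0.284). The arrays of like number were close to each other while array number 2 stood well below the others in both groups. Pcdh19, whose human counterpart is mutated in an X-linked epilepsy, had 111, 165 and 296 in Math2 cells, against 291, 146 and 338 in control cells and a difference of -0.45 (SE 0.435). Pcdh9 had 474, 249 and 1138 in Math2 cells, against 579, 392 and 997 in control cells and a difference of -0.24 (SE 0.515), again with number 2 lowest and number 3 highest in both groups. Pcdh8, an activity-induced protocadherin also named arcadlin, and Pcdh10, of axon tracts, had differences of -0.35 (SE 0.682) and -0.24 (SE 0.349), and Math2 array 1 gave Pcdh8 a signal of 14.95 against 180.1 and 130.0 on the other Math2 arrays and 79.97 to 109.7 on control arrays. None of these passed in limma, with adjusted p of 1.00 for each.

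Pcdh20 was measured by a pair of tested probe sets with opposite signs. Probe set 1385229_at had 705, 258 and 794 in Math2 cells, against 957, 318 and 774 in control cells, a log2 difference of -0.23 (SE 0.494). Probe set 1391208_at had 347, 116 and 308 in Math2 cells, against 204, 99.6 and 227 in control cells, a difference of 0.46 (SE 0.467), and was higher in 3 of 3 pairs. The ratio of 1391208_at over 1385229_at was 0.69 higher on Math2 arrays on the log2 scale, without overlap. Exact permutation gave p = 0.1, the smallest possible, and 0.3 adjusted over 6 genes. Here again the pair was picked for its opposite signs, so the p cannot serve as a test. On both probe sets array number 2 was lowest in both groups. The other 3 genes with such opposed probe sets, Cdh11, Cdh22 and Pcdh17, gave permutation p of 0.9, 0.4 and 0.6. Their direction was fixed in the same way. Pcdh15, of the hair cells of the ear, and the dimmer Pcdh9 probe set did not pass the filter, with group means of 7.44 to 25.5.

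Clustered protocadherins had 10 probe sets for 9 genes, and 5 passed the filter. Their coding exons are close copies of each other, so that signal may be shared between genes and single values are uncertain. Pcdhb22 had 106, 172 and 171 in Math2 cells, against 195, 193 and 181 in control cells. All Math2 arrays were below all control arrays, by a narrow gap between Math2 array 2 and control array 3, and the log2 difference was -0.36 (SE 0.325), with an exact permutation p of 0.1 and a limma adjusted p of 1.00. Pcdhb19 had 163, 187 and 211 in Math2 cells, against 275, 186 and 247 in control cells, a difference of -0.31 (SE 0.307). Pcdhb9 had 149.6, 154 and 309 in Math2 cells, against 314, 147 and 293 in control cells, a difference of -0.30 (SE 0.405). In both genes the groups overlapped, and control array 1 was the highest of the 6. On the other side, Pcdhb12 had 75.4, 79.8 and 92.1 in Math2 cells, against 78.04, 57.5 and 47.03 in control cells on its tested probe set, a difference of 0.42 (SE 0.367), from signals below every array median. Pcdha13 had a difference of 0.38 (SE 0.407) and was higher in 3 of 3 pairs. The untested members Pcdha12, Pcdhb6, Pcdhb17, Pcdhb21 and the other Pcdhb12 probe set had group means of 26.7 to 75.6. Of the 40 member genes, 38 were matched by gene number to RefSeq, and Pcdha12 and Pcdha13, which RefSeq now lists as other names of Pcdha4, were not.

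For most members the arrays differed more by number than by group. On the log2 scale the number of the array accounted for a median of 61.9% of the sum of squares of the 35 member probe sets, and the group for 9.32%. Group has 1 of the 5 degrees of freedom here and number has 2. Over all tested probe sets these medians were 55.5% and 9.74%. The group share was 75.6% for Fat4, 72.8% for Fat1 and 50.9% for Pcdhb12, against 0.0089% for Pcdh18, whose number share was 99.1%. Array number 3 was highest in both groups for 11 of the 35, or 31.4%, against 14.8% of all tested probe sets. Number 2 was lowest in both for 8, or 22.9%, against 16.4%. What a number stands for is not stated. The Gapdh 3' to 5' ratio, a sign of RNA length, also differed by number, at 8.48, 5.997 and 8.14 in Math2 cells, against 13.8, 3.74 and 5.04 in control cells, lowest on number 2 of both groups, and its part in these values was not tested.

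**Figure D3:**
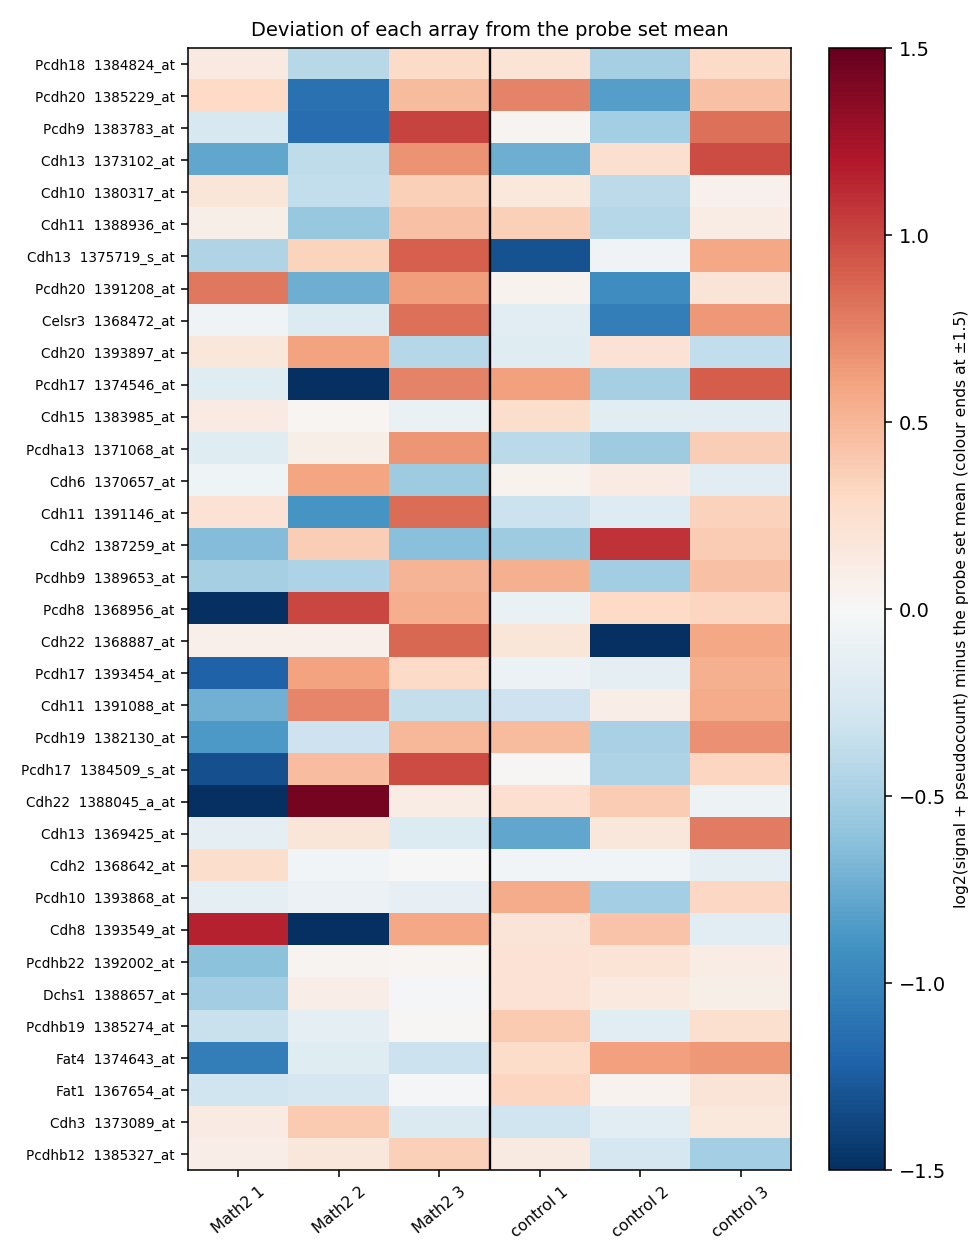
Deviation of each array from the mean of the probe set, on the log2(signal + pseudocount) scale, for the 35 tested member probe sets, ordered by the share of variation that goes with array number. Rows near the top repeat the same colours in the Math2 and the control block, with number 2 low and number 3 high in many, and near the bottom Fat4 and Fat1 are blue or white in the Math2 block and red in the control block.

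**Figure D4:**
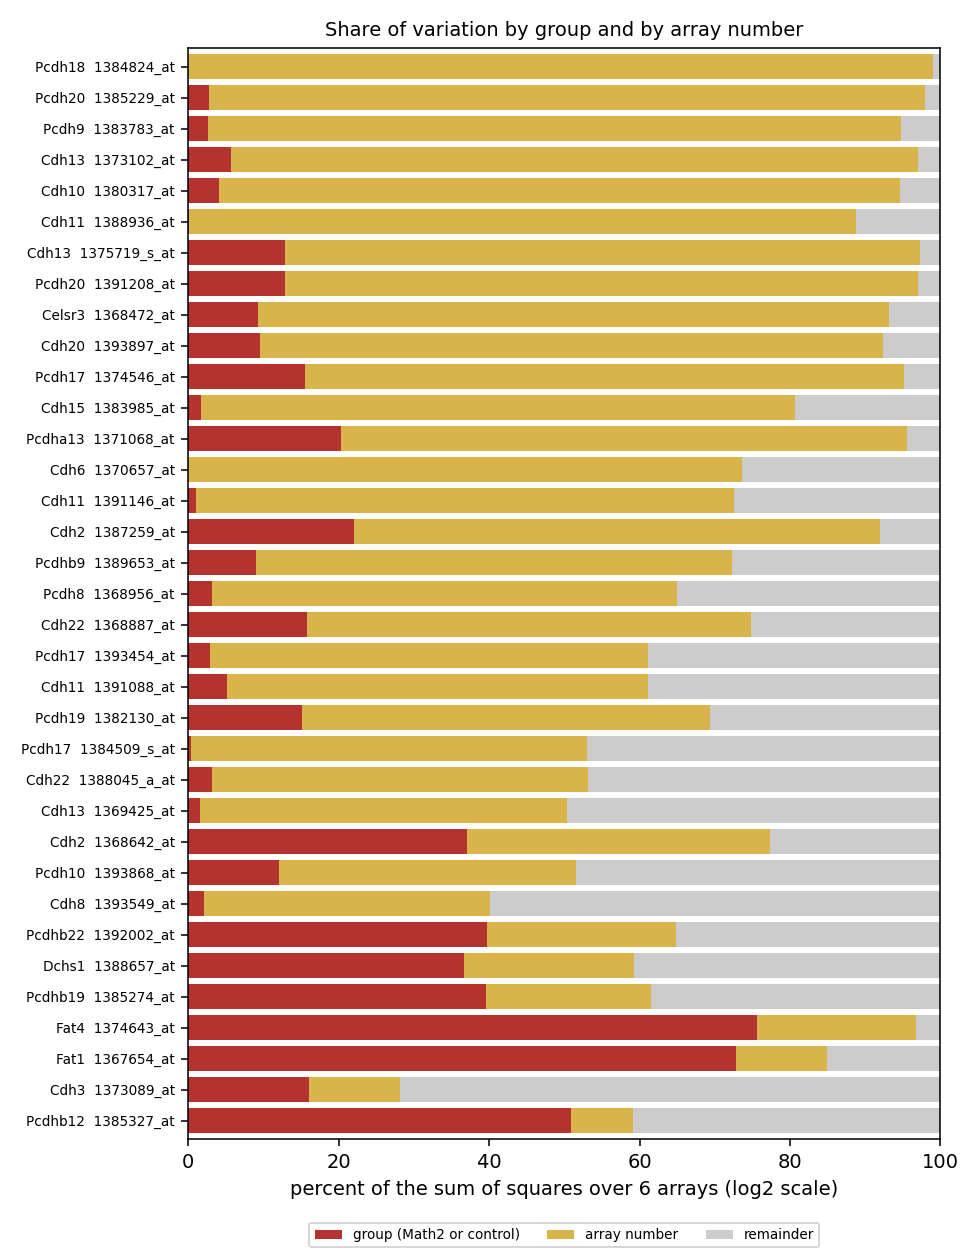
Percent of the sum of squares over 6 arrays that goes with group, with array number and with the remainder, for each tested member probe set. The group part is 75.6% for Fat4 and 72.8% for Fat1, and the number part leads for most of the others.

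The summed signals of neuronal and of glial markers varied with array number as well. The summed signal of 10 pan-neuronal markers, among them the microtubule protein gene Dcx and the synaptic gene Snap25, was 18011, 15008 and 34636 in Math2 cells, against 20493, 15066 and 26809 in control cells. It was highest on number 3 and lowest on number 2 in both groups. So were Pcdh18, Celsr3 and the brightest probe sets of Pcdh9 and Pcdh17, while the dimmer Pcdh17 probe sets were not. Over all tested probe sets number 3 was highest in both groups for 14.8% and number 2 lowest for 16.4%. The share with both was not computed. Of the pan-neuronal markers 8 were tested, with 6 higher and 2 lower. The median of their log2 differences was 0.065 (0.077 with quantile normalization). Rbfox3, the NeuN gene, had 79.1, 264 and 289 in Math2 cells, against 50.3, 53.4 and 163 in control cells. Its difference was 1.18 (SE 0.567), higher in 3 of 3 pairs with overlap between groups. Signals below the array median on Math2 array 1 and control arrays 1 and 2 leave this fold uncertain. Of 10 fibroblast and meningeal markers 8 were tested and all 8 were lower, with a median of -0.29 (-0.27 with quantile normalization). The untested Dcn and Lum lay on the higher side, at 0.14 and 0.40, with overlap between groups. Of the 8 tested, 3 did not overlap between groups, Aldh1a2, Fbn1 and Col1a1. Aldh1a2 was dim, at 46.1, 40.9 and 49.2 in Math2 cells, against 73.4, 79.5 and 152 in control cells. Over all tested probe sets 54.3% were lower, and 4.3% were lower without overlap. The sum of all 10 fibroblast and meningeal markers ran from 8889 to 9526 on Math2 arrays and from 9195 to 12633 on control arrays. Among 8 tested astrocyte and radial glia markers 4 were higher and 4 lower, with a median of 0.028, which was -0.17 with quantile normalization. Fgfr3 was lower without overlap at -0.57. On the higher side Fabp7 had the largest difference, 0.39, with overlap between groups, and it was -0.15 with quantile normalization. The 9 markers of this list on the array, tested or not, summed to 67656, 60223 and 41182 in Math2 cells, against 52464, 51354 and 44424 in control cells. This sum was highest on number 1 and lowest on number 3 in both groups. Most of it came from the bright probe sets of Fabp7, Slc1a3 and Gja1, and not every marker kept that order. Gfap was highest on number 2 in both groups, at 5802 in Math2 cells and 4344 in control cells. The part of these cell types in the values of Fat4, Fat1 and the protocadherins was not tested.

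Endothelial and mural markers had 6 of 10 tested, with 3 higher and 3 lower, a median of 0.064 (0.082 with quantile normalization) and sums from 1099 to 1567 on Math2 arrays and from 857 to 1749 on control arrays. Pdgfrb, the platelet-derived growth factor receptor of pericytes and other mesenchymal cells, had 147, 159 and 293 in Math2 cells, against 62.9, 37.2 and 54.8 in control cells, higher without overlap. Its control signals lay below every array median, so its fold is uncertain. The difference of 1.77 (SE 0.392) was larger than that of any tested member. It had a limma adjusted p of 1.00 without and 0.198 with the block. Oligodendrocyte lineage markers had 4 of 8 tested, with 1 higher and 3 lower, a median of -0.041 (-0.052 with quantile normalization) and sums from 8879 to 12517 on Math2 arrays and from 8257 to 13018 on control arrays. All 9 microglia and macrophage markers lay below every array median, and none was tested. No marker was listed at 0, and no list member passed in limma.

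Genes that work with cadherins were read from the same fit, and none of them passed in limma. Of 11 tested catenins and junction partners 5 were higher and 6 lower, with a median of the log2 differences of -0.072 (-0.19 with quantile normalization). Ctnnb1, beta-catenin, which links classical cadherins to alpha-catenin, had 29224, 22006 and 18978 in Math2 cells, against 15788, 13518 and 13603 in control cells, without overlap. Its difference of 0.69 (SE 0.187) was 0.20 with quantile normalization, and its limma adjusted p was 1.00 without and 0.206 with the block. Afdn (afadin, which ties nectins to actin) and Ctnna2 (the neuronal alpha-catenin) had differences of -0.42 and -0.34, each lower in 3 of 3 pairs and Afdn without overlap. Of 6 tested proteases and trafficking factors 2 were higher and 4 lower, with a median of -0.18 (-0.11 with quantile normalization), among them Adam17 at -0.36, Ncstn at -0.30 and Pcsk5 at -0.32.

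In the Fat and Dachsous pathway with the Hippo kinase chain, 7 of 15 tested genes were higher and 8 lower, with a median of the log2 differences of -0.11 (-0.047 with quantile normalization). Wwc1 (Kibra, an upstream Hippo regulator) had 681, 1153 and 619.6 in Math2 cells, against 343, 521 and 603 in control cells, a difference of 0.72 (SE 0.33), without overlap. Tead2, a transcription factor at the end of the pathway, had 1554, 3000.0 and 1238 in Math2 cells, against 2715, 2784 and 2752 in control cells, a difference of -0.61 (SE 0.308), and the groups overlapped because Math2 array 2 was the highest of the 6. Sav1, a scaffold of the Hippo kinases, had 1658, 1139 and 1622 in Math2 cells, against 1913, 1964 and 1695 in control cells, a difference of -0.35 (SE 0.237), without overlap. With the block the limma adjusted p of the 3 genes ran from 0.522 to 0.745.

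Of 9 tested planar polarity partners of Celsr, 5 were higher and 4 lower, with a median of the log2 differences of 0.088 (0.10 with quantile normalization). Vangl2, a core membrane protein of planar polarity, had 538, 493 and 526 in Math2 cells, against 629.6, 725 and 659 in control cells, lower without overlap, with a difference of -0.37 (SE 0.246). Dvl1 and Ptk7 had -0.48 and -0.33. Of 12 tested regulators of the clustered protocadherin loci, such as Ctcf and cohesin subunits, 8 were higher and 4 lower, with a median of 0.063 (0.026 with quantile normalization), and Setdb1, Rad21 and Wiz had 0.17, 0.16 and 0.19, of which that of Rad21 was 0.0045 with quantile normalization. Of 9 tested cytoplasmic partners of protocadherins 7 were higher and 2 lower, with a median of 0.088 (0.037 with quantile normalization). Among them Fyn, Ptk2 and Nckap1 had 0.40, 0.35 and 0.15, and the last was -0.14 with quantile normalization.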

How the data were processed

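The values are intensities deposited by the authors, 1 for each probe set on each array, computed with MAS5 per the submitters' processing notes. Its version is not given in the sources used here, nor are its settings. In MAS5 background and mismatch signal are subtracted. The 2% trimmed means ran from 500.15 to 500.19, so no further scaling was applied. No detection calls are in the table, and the number of arrays limits the precision. After setting 57 control probe sets aside, log2(signal + 7.42), the 10th percentile of positive values as pseudocount, was fitted with limma 3.58.1 in R 4.3.3 (lmFit, eBayes with trend), two-sided, for probe sets with a mean of 6.07 or more, and adjusted over all of them. The fit was tested on simulated data with independent arrays. Those had no effect of array number, so the simulation does not show how the fit behaves with the one in these data. Symbols are those of the platform annotation, which can be out of date (20826 probe sets with 1 symbol, 436 with several, 9780 with none).

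Deviations from group means correlated across probe sets at 0.326, 0.476 and 0.372 for arrays of like number, above the limit of 0.1 set for pairing. For unlike numbers the range was -0.4604 to 0.104, so Math2 array 3 with control array 1 also exceeded that limit slightly. Every like-numbered value was above every unlike one. Like numbers were therefore compared as pairs, a pairing that rests on the data and not on the labels. Limma with the number as a block is given beside results where it bears on them. Unless the block is named, standard errors are from the fit without it, and the exact permutation p-values ignore the pairs. The block made some standard errors smaller (0.255 against 0.553 for Pcdh17 1374546_at) and others larger (0.383 against 0.365 for Cdh3).

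Members, subfamilies, 6 lists of partner genes and 6 of cell type markers were chosen with earlier results of these data known. In the lists each gene is represented by its brightest probe set. Per-array values are given for the 3 brightest genes of each subfamily, the 12 member probe sets with the smallest p, genes whose probe sets differ in sign, Cdh2, Cdh5, Cdh11 and Fat4, and up to 3 genes are named per partner list. Cdh5 is not analysed here. Other genes named were chosen after their values were seen. Alternatives covered the pseudocount, the filter, the scaling, the trend, the block and each array left out, and the closing section gives their effect.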

Additional observations from a re-analysis of the deposited data

How the results depend on the processing

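No cadherin or protocadherin probe set was called in any of 18 alternatives: pseudocounts of 1 and 32, no filter and a 60th percentile filter, quantile normalization, median centring, eBayes without a trend, the replicate block alone and with quantile normalization, each array left out, and, chosen after seeing the data, the block with each array number left out. Over all tested probe sets 3 were called with the replicate block, 5 with the block and quantile normalization, and 0 to 111 when arrays were left out, the highest with the block and without number 2. The block changed no call of a member. The median over the member genes ranged from -0.28 to 0.051 when arrays were left out, that of type I cadherins from 0.019 to 0.19, type II from -0.050 to 0.29, delta-2 protocadherins from -0.71 to -0.0081, clustered protocadherins from -0.40 to 0.14 and Celsr from -0.44 to 0.79. The filter was set anew each time, so the genes could differ. The Celsr value of -0.44 covered 2 genes and the clustered value of 0.14 covered 6, against 1 and 5 with all arrays. The type I median was 0.041 with a gene as the mean of its probe sets. The clustered one was 0.049 with pseudocount 1 and 0.031 with quantile normalization, alone or with the block. In these settings 6 clustered genes passed the filter in place of 5, and over the same 5 genes the quantile-normalized median was -0.26. The Fat and Dachsous median was -0.59 with quantile normalization, alone or with the block. Of 30 named probe sets 12 kept their sign throughout, Fat4, Fat1, Dchs1 and both tested Cdh2 probe sets among them. Among these the range with arrays left out was -1.23 to -0.065 for Pcdh17 1374546_at, -0.81 to -0.0081 for Pcdh19, -1.04 to -0.23 for Cdh2 1387259_at, 0.061 to 0.23 for Cdh2 1368642_at, 0.019 to 0.49 for Cdh3, 0.11 to 0.94 for Pcdh20 1391208_at, 0.19 to 0.65 for Pcdhb12, -0.47 to -0.11 for Pcdhb19, -0.50 to -0.12 for Pcdhb22, -0.42 to -0.076 for Dchs1, -0.46 to -0.26 for Fat1 and -1.19 to -0.76 for Fat4. The others changed sign only when arrays were left out, with these ranges of the log2 difference: Cdh15 1383985_at (-0.039 to 0.18), Cdh10 1380317_at (-0.050 to 0.33), Cdh11 1388936_at (-0.25 to 0.25), Cdh11 1391088_at (-0.67 to 0.11), Cdh11 1391146_at (-0.28 to 0.58), Cdh20 1393897_at (-0.016 to 0.50), Cdh22 1368887_at (-0.050 to 1.13), Cdh22 1388045_a_at (-1.18 to 0.62), Cdh13 1369425_at (-0.54 to 0.32), Cdh13 1373102_at (-0.77 to 0.086), Cdh13 1375719_s_at (-0.0014 to 0.95), Pcdh9 1383783_at (-0.81 to 0.27), Pcdh17 1384509_s_at (-0.39 to 0.78), Pcdh17 1393454_at (-0.68 to 0.35), Pcdh18 1384824_at (-0.24 to 0.21), Pcdh20 1385229_at (-0.70 to 0.27), Pcdhb9 1389653_at (-0.63 to 0.071) and Celsr3 1368472_at (-0.050 to 0.79). The cause was not tested. Signals near or below the array medians leave folds uncertain.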

Other observations

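The annotation names several clustered protocadherins for each of 4 further probe sets, which were outside the rule for members. These probe sets do not single out a gene and may report a cluster as a whole. For the gamma cluster, probe set 1388551_at, with 13 symbols, had 2695, 5106 and 4402 in Math2 cells, against 5699.9, 4467 and 7038 in control cells. Control array 2 lay among the Math2 arrays, and the log2 difference was -0.52 (SE 0.272; limma adjusted p = 1.00 without and 0.611 with the block). The other gamma probe set, with 14 symbols, did not pass the filter, at means of 24.8 on Math2 arrays and 27.9 on control arrays. For the alpha cluster, probe set 1390821_at, with 15 symbols, had 757, 582 and 1316 in Math2 cells, against 656, 491 and 1021 in control cells, higher in 3 of 3 pairs with a difference of 0.27 (SE 0.367). Probe set 1393149_at, with the same 15 symbols, had 329, 346 and 808 in Math2 cells, against 435, 445 and 685 in control cells, a difference of -0.17 (SE 0.3798). Both alpha probe sets had their highest signal on array number 3 of each group, and neither passed in limma (adjusted p = 1.00 for each).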
